A study of Homo sapiens with 9 samples.

Results

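Long intergenic noncoding RNA genes with a LINC symbol were taken from the list of genes deposited with an H2BK120Ub ChIP-seq series in RPE1 cells, a human retinal pigment epithelial line immortalized with hTERT. The members were the listed genes whose Ensembl identifier carries, in the GENCODE v44 annotation, a symbol made of LINC and 5 digits, and there were 1100 of them among 9588 listed genes. The ChIP libraries came from cells of the genotype RPE1 iCas9 p53/puro-dKO and fell into 4 groups: mock (2 libraries), UV-C of 9 J/m2 followed by 3 h (2 libraries) or 24 h (4 libraries) of recovery, and the input of mock cells (1 library). All of these groups share that background, which lacks p53, and a single immortalized line. The list holds no value of a ChIP library, so the response of these genes to UV is not analysed here. It gives for each gene the TSS, strand, length and a single measurement, the BrU-seq density over its first 3 kb, measured without UV in WT cells of an earlier study. BrU-seq captures RNA that has taken up bromouridine during a brief pulse, and thus reads out nascent transcription rather than RNA that has accumulated. The density is the authors' value and carries no error and no depth, and genes are not replicates of each other, so the comparisons here are descriptions and no test was run over genes.

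The LINC symbol is given to long noncoding RNA genes that lie between protein-coding genes and have no better name. Most are transcribed by RNAPII, capped, spliced and polyadenylated, and as a class they are known for low and tissue-restricted expression. A few act in the nucleus on nearby genes or chromatin, some hold microRNAs or proteins in the cytoplasm, and for many no function is known. The label was checked against the annotation. All 1100 members lay on the annotated chromosome and strand, and 1094 were annotated as lncRNA. The other 6 were the pseudogenes LINC00301, LINC00431, LINC00680, LINC00993 and LINC01667, and LINC02218, which the annotation now classes as protein-coding. The bodies of 82 members (7.45%), by their listed coordinates, overlapped a protein-coding gene of GENCODE v44 on either strand, so these were not intergenic as listed. Among all listed genes, 17.8% overlapped another protein-coding gene in this way. For comparison, the list held 6036 other protein-coding genes and 2264 other lncRNA genes.

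The density is counted from the listed TSS, and the promoters of 4 of the members with the highest densities are shown to let their start sites be set side by side. A promoter is here the stretch from 250 bases before to 50 bases after the listed TSS, read 5′ to 3′ on the gene's strand from the hg38 genome, with each CpG dinucleotide in capitals. LINC01012 (chr6:27687393-27687692, plus strand) had the highest density after LINC01118, at 162.3, of the members with a CpG-rich promoter, which means a GC content of at least 50% and at least 0.6 of the CpG number that base composition predicts. LINC01638 (chr22:27224617-27224916, minus strand), LINC00641 (chr14:21206851-21207150, minus strand) and LINC02454 (chr12:65602532-65602831, plus strand) had the highest densities of the members with a CpG-poor one.
LINC01012: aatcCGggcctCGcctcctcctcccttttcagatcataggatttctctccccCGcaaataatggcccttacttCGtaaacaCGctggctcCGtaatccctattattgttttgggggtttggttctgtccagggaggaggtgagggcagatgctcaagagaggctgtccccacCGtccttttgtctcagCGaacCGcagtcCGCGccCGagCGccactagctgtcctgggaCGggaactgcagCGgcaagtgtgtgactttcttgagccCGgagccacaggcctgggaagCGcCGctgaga
LINC01638: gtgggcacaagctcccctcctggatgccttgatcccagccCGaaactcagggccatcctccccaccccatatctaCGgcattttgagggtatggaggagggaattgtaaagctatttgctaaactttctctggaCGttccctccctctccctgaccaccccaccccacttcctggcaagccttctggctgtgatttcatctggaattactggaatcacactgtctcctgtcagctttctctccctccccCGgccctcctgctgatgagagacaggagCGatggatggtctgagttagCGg
LINC00641: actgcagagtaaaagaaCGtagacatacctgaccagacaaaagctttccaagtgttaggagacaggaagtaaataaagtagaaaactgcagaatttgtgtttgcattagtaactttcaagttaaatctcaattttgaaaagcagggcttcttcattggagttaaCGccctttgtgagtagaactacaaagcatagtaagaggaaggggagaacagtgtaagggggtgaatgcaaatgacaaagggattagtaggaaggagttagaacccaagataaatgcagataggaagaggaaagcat
LINC02454: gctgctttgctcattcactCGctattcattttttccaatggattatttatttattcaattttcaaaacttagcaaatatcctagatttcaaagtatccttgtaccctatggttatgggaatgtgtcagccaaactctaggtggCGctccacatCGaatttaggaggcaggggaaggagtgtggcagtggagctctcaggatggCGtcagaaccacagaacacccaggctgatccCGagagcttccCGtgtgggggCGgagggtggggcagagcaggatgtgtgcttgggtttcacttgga
The promoter of LINC01012 holds 18 CpG dinucleotides, at a density of 95.6. The next 3 hold 6, 2 and 7, at the higher densities of 303.7, 276.6 and 217.1. Of these 4, LINC00641 alone has a listed start and end that are those of an annotated transcript. For the other 3, this match does not tell whether the start or the end differs.

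Nascent RNA was rare over LINC genes. Of the 1096 members with a value, 404 had a density above 0, or 36.9% (95% exact binomial interval 34.0 to 39.8%), where 58.7% of all listed genes did. The share was 70.0% in protein-coding genes (4214 of 6019) and 39.5% in the other lncRNA genes (890 of 2251). Only 49 members, or 4.47% (3.33 to 5.87%), were among the 3000 genes with the highest densities, the set that the authors treat as actively transcribed and whose lowest density was 15.04. That set held 31.6% of all listed genes with a value, 45.8% of the protein-coding genes and 7.77% of the other lncRNA genes (175 of 2251). Members were listed at 0 in 692 cases, and 4 members, LINC00331, LINC00348, LINC00613 and LINC02684, had no value. The intervals treat genes as independent draws and cover counting error only.

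Members with nascent RNA also had little of it. The median density above 0 was 0.91 (order-statistic interval 0.607 to 1.26, 404 genes), with quartiles of 0.217 and 5.68. In protein-coding genes it was 36.5 (33.8 to 38.7, 4214 genes), with quartiles of 4.81 and 85.0, so the medians differed 40.1-fold. The other lncRNA genes had a median of 1.41 (1.17 to 1.78), and their interval overlapped that of the members. Of the 404 members, 210 (52.0%) lay under 1, while this held for 686 protein-coding genes (16.3%). Densities of at least 100 were reached by 6 members (1.49% of those above 0) and by 830 protein-coding genes (19.7%). Every density above 0 was a whole multiple of 0.0433, the smallest value, within 0.1 of a step. Of the members above 0, 62 (15.3%) stood at 1 to 3 such steps and 13 at a single step, so part of the difference between a low density and a listed 0 rests on very few steps. Among protein-coding genes above 0, 188 (4.46%) stood at 1 to 3 steps.

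The highest density belonged to LINC01638, a transcript studied in cancer cells, at 303.7, which ranked 126 in the list. It spans 54197 bp on the minus strand of chromosome 22, from 27170470 to 27224666, with 3 exons in its canonical transcript. Its first 3 kb lay 523611 bp from the nearest annotated protein-coding gene, MN1, a transcriptional coregulator. LINC00641 followed at 276.6 and LINC02454 at 217.1, with 2 and 3 exons. LINC01118 stood at 162.3, LINC00342 at 140.3 and LINC01355 at 118.4. No other member reached 100. LINC01012 lies on chromosome 6, nearest to the histone gene H2BC13, at a distance of 116837 bp, and had a density of 95.6. LINC01963 stood at 90.7, with a single exon in its canonical transcript and a start 11399 bp past the end of XRCC5, which encodes the Ku80 subunit of the end-joining complex. LINC02427 had 74.3 and LINC03041 had 63.6. The members ranked from the 11th to the 20th, LINC02925, LINC00467, LINC00920, LINC03072, LINC00839, LINC03016, LINC00471, LINC02035, LINC01473 and LINC02631, ran from 55.9 down to 42.4. Of the 20 highest members, 7 had a CpG-rich promoter. The remaining members of the 3000 fell gradually from LINC02742, at 34.7, to LINC00632, at 15.3. These densities give an order without an error, so neighbours in it cannot be told apart.

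Nascent RNA over members was found more often close to protein-coding genes. Members were sorted by the annotated protein-coding genes around their start, an order chosen after the densities had been seen. A protein-coding gene lay over the first 3 kb on the same strand in 17 members with a value, and 4 of these (23.5%, interval 6.81 to 49.9%) were among the 3000. It lay over the first 3 kb on the other strand in 44, with 2 among the 3000 (4.55%, 0.555 to 15.5%). Another 14 had a divergent protein-coding start within 2 kb, with 3 among the 3000 (21.4%, 4.66 to 50.8%). In 56 members a protein-coding gene on the same strand ended within 10 kb upstream, and 15 of these (26.8%, 15.8 to 40.3%) were among the 3000. The 965 members with none of these neighbours supplied 25 (2.59%, 1.68 to 3.80%). Thus 131 members close to a protein-coding gene held 24 of the 49, a share of 18.3% (12.1 to 26.0%). Among protein-coding genes the same division gave 50.9% and 44.05%, and among other lncRNA genes 13.6% and 3.91%.

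Single loci show what these classes hold. LINC01118 starts 12 bases from the annotated start of SOCS5, a suppressor of cytokine signalling, on the same strand. Both are listed, and their first 3 kb, as listed, share 2645 bases. The densities were 162.3 for LINC01118 and 179.2 for SOCS5, so most of the stretch behind both values is the same. The first 3 kb of LINC03041 also overlapped a gene on the same strand, the zinc finger gene BNC2. Its start, however, lay 459853 bp from the nearest annotated protein-coding start. LINC01473 and ZC3H15 start 54 bases apart in opposite directions, and LINC02925 starts 1056 bp from CELSR1, a planar polarity cadherin, with densities of 55.9 and 48.9. LINC00571 and UFM1, which encodes a ubiquitin-like modifier, start on opposite strands with 406 bases in common, yet their densities were 20.5 and 117.2. The authors ran the density count of HOMER at its default settings, which take reads of both strands, and their methods name stranded counting for profiles alone.

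LINC00641 starts 2236 bp past the end of HNRNPC, on the same strand. HNRNPC encodes an abundant protein that packages pre-mRNA, and its own density was 703.0, which ranked 37. C1GALT1, a glycosyltransferase gene, ends 6538 bp before LINC03016, and they had 131.0 and 47.7. TRAF5, an adaptor of TNF receptors, ends 7781 bp before LINC00467, with 37.7 and 52.9. By contrast CDH5, the cadherin of endothelium, was listed at 0 while LINC00920, 3747 bp past its end, had 51.4. NMUR1, a neuropeptide receptor gene, was likewise listed at 0, and LINC00471 had 46.3. Of the members past the end of a protein-coding gene, 11 had an upstream gene that was listed among the 3000, and all 11 were above 0, with 3 of them among the 3000. A further 9 had an upstream gene that was listed outside the 3000, and 4 of these were above 0, with 3 among the 3000. The rest of the 56 members of this class had no density for their upstream gene. Of the 15 members of the class that were among the 3000, 6 had one. An upstream density covers the first 3 kb of that gene and not the end near the member. RNAPII is known to transcribe past the polyadenylation site before it is released. The part of upstream transcription in the densities of these members was not tested.

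The nearest listed gene gave the same order. When it was among the 3000, 144 of 247 members were above 0 (58.3%) and 22 (8.91%, 5.67 to 13.2%) were among the 3000. When it was not, 260 of 849 were above 0 (30.6%) and 27 (3.18%, 2.11 to 4.59%) were among the 3000. For protein-coding genes the shares among the 3000 were 55.5% and 40.2%.

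LINC genes spanned about the same range of lengths as protein-coding genes. The median listed length was 25771 bp (interval 22563 to 28366), with quartiles of 10297 and 72031 bp, against 23032.5 bp (22209 to 23720) in protein-coding genes and 15321.5 bp in other lncRNA genes. The order of LINC and protein-coding genes depends on the coordinates: by the annotated gene in place of the listed length, the medians were 20429.5 and 28059.5 bp. Long members were common, with 369 (33.5%) reaching 50 kb and 205 (18.6%) reaching 100 kb, where protein-coding genes had 26.1% and 10.9%. The 5 longest were LINC02240 (692925 bp), LINC02715 (665343 bp), LINC00871 (566160 bp), LINC00378 (557734 bp) and LINC02694 (552440 bp). LINC02715 had a density of 0.52 and the other 4 were listed at 0.

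The share of transcribed genes was higher in longer protein-coding genes and level over length in LINC genes and in other lncRNA genes. Among the 3000 were 4.48% of members under 10 kb (12 of 268), 4.34% of those from 10 to 50 kb (20 of 461), 4.91% from 50 to 100 kb (8 of 163) and 4.41% of at least 100 kb (9 of 204). The 4 intervals overlapped, the widest running from 2.14 to 9.44%. In protein-coding genes the shares were 30.6%, 48.5%, 54.4% and 55.3%, and in other lncRNA genes 8.24%, 7.25%, 8.11% and 7.79%. The authors' profiles use genes of the 3000 that reach 50 kb or 100 kb, sets of 919 and 390 genes by this ranking, and these held 17 and 9 LINC genes. The 9 were LINC01118, LINC03041, LINC01473, LINC02742, LINC02516, LINC02542, LINC00571, LINC02223 and LINC02284, with densities from 162.3 to 17.3. LINC01473 was the longest of them, at 453439 bp.

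LINC genes stood further from other genes. The median gap to the nearest listed gene, in bases between gene bodies on either strand, was 76628.5 bp (62400 to 86594) for members and 34886.5 bp (32932 to 37012) for protein-coding genes, a ratio of 2.20. To the nearest listed protein-coding gene it was 246372 and 48800 bp, a ratio of 5.05. The other lncRNA genes, with 82849 bp to any listed gene, were close to the members. The list had been thinned by the authors to keep genes apart, so these gaps can exceed those to all annotated genes. Even so, 99 members had a listed neighbour less than 2 kb away, and in 80 of these the pair overlapped. Nascent RNA was more common in the less isolated members. With a gap under 10 kb, 44.6% were above 0 and 7.77% (15 of 193, 4.42 to 12.5%) were among the 3000, and with a gap of at least 200 kb 29.3% and 3.21% (8 of 249, 1.40 to 6.23%). Those last intervals overlapped. Protein-coding genes had 47.4% and 51.0% among the 3000 at these gaps. Of the transcribed members, LINC01776 was the most isolated, at 790605 bp and a density of 33.4, while LINC01118, LINC02454, LINC00867 and LINC00571 overlapped a listed gene.

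Members also lay beside each other. The nearest listed gene was another LINC gene for 252 members (22.9%), though LINC genes made up 11.5% of the list, for 17.8% of other lncRNA genes and for 6.97% of protein-coding genes. In chromosomal order, 418 members (38.0%) stood in 175 runs of at least 2 LINC genes with no other listed gene between. How many such runs a random order of the list would hold was not tested. The longest run had 9 members on chromosome 12, from LINC02826 to LINC02441, between 125983538 and 128027168. In it, LINC02825 had a density of 0.13, LINC02376 had 0.173 and the other 7 were listed at 0. The next run, of 7 members on chromosome 13 from LINC00440 to LINC00379, was listed at 0 throughout. A run of 6 on chromosome 4, between 184327883 and 185107248, was different. LINC02427 had 74.3, LINC02362 had 32.0 and LINC02363 had 2.38, while LINC02365 had 0.0867 and LINC01093 and LINC02436 were listed at 0. LINC02362 starts 3286 bp past the end of IRF2, a transcription factor gene of the interferon response.

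By chromosome, members took from 2.40% of the listed genes on chromosome 19 (11 of 458) to 31.9% on chromosome 13 (73 of 229) among autosomes. Chromosome 13 had 2 members among the 3000, LINC00571 and LINC01076, or 2.82% of those with a value, near the 4.47% of all members. Chromosome 2 had 9 of its 92, the highest number, and chromosome 1 had 4 of 107. On chromosomes 8, 15, 17, 20 and 21, with 37, 28, 31, 24 and 30 members, no member was among the 3000. With so few members on each, this does not set these chromosomes apart.

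LINC promoters were seldom CpG-rich. CpG-rich promoters start most broadly expressed genes and stay largely unmethylated. Of the members, 101 had a CpG-rich promoter, or 9.18% (7.54 to 11.0%), where 42.7% of all listed genes, 61.0% of protein-coding genes and 12.4% of other lncRNA genes did. Members with one were above 0 in 54.5% and among the 3000 in 13.9% of cases (14 of 101, 7.79 to 22.2%), and CpG-poor members in 35.1% and 3.52% (35 of 995, 2.46 to 4.86%). At CpG-rich promoters, 65.9% of protein-coding genes were among the 3000, and at CpG-poor ones 14.2%, so LINC genes stood below protein-coding genes within each promoter class. From the other side, 28.6% of the members among the 3000, 11.5% of those with a lower density above 0 and 6.65% of those listed at 0 had a CpG-rich promoter. The same shares of protein-coding genes were 87.9%, 47.6% and 31.0%. Promoter class and neighbours moved together. Of the members with a divergent protein-coding start 64.3% were CpG-rich, and of those with no close protein-coding gene 6.74%. Without close protein-coding genes, 6 of 65 CpG-rich members (9.23%, 3.46 to 19.0%) and 19 of 900 CpG-poor ones (2.11%, 1.28 to 3.28%) were among the 3000.

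A search of both strands of the same windows for short promoter motifs set members apart from protein-coding genes but little from other lncRNA genes. The GC box GGGCGG, which Sp1 family factors bind, was present in 13.0% of LINC promoters, 58.6% of protein-coding promoters and 42.6% of all listed promoters. The TATA motif TATAAA was present in 18.2%, 10.8% and 13.4%. CCAAT, bound by NF-Y, was found in 40.9%, 36.6% and 37.6%. The AP-1 motif TGANTCA was found in 13.9%, 6.71% and 8.88%. Among the 49 transcribed members, 14 had GGGCGG (28.6%), 4 had TATAAA (8.16%), 26 had CCAAT (53.1%) and 10 had TGANTCA (20.4%), and in those listed at 0 the shares were 9.97%, 20.2%, 42.5% and 12.9%. In other lncRNA promoters the 4 shares were 16.2% for GGGCGG, 17.4% for TATAAA, 38.5% for CCAAT and 11.8% for TGANTCA. None of the 4 motifs contains another. A match describes the letters only. The median GC content of the windows was 46.3% in members and 62.3% in protein-coding genes, and the part of base composition in the motif shares was not tested.

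The annotated transcripts were short beside the length of the loci. The canonical transcript of a member had a median of 4 exons and 1139 spliced bases, where protein-coding genes had 7 exons and 2948.5 bases. Other lncRNA genes had 3 exons and 720 bases. Only 10 members had a single exon, LINC01963, LINC03072 and LINC02035 among them. Over the first 3 kb, on the coding strand, the polyadenylation signal AATAAA occurred 0.945 times per kb on average in members and 0.594 times in protein-coding genes. Other lncRNA genes, at 0.916, were close to the members. The 5′ splice site motif GGTAAG, which U1 snRNP recognises, occurred 0.223 and 0.229 times per kb. A second form of this motif, GGTGAG, occurred 0.352 times per kb in members and 0.508 times in protein-coding genes. Other lncRNA genes had 0.224 GGTAAG and 0.344 GGTGAG per kb. Members among the 3000 had 0.639 AATAAA per kb and those listed at 0 had 1.01. The same classes of other lncRNA genes had 0.699 and 0.977. The GC content of the first 3 kb had a median of 42.2% in members, 48.6% in protein-coding genes and 42.6% in other lncRNA genes. The part of base composition in the counts of AATAAA and of the splice site motifs was not tested. A microRNA hairpin of the RefSeq table lay on the same strand in 2 of 1096 members, LINC01205 and LINC02125, both listed at 0, and in 17 of 6019 protein-coding genes, a like share.

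UV-C forms dimers at adjacent pyrimidines, most readily at TT, and those on the transcribed strand block RNAPII. TT dinucleotides on the transcribed strand had a median of 94.6 per kb in members, 80.6 in protein-coding genes and 94.2 in other lncRNA genes. Members stood above protein-coding genes at every length. Against other lncRNA genes they stood lower in the length classes under 50 kb and slightly higher in the longer ones. Members had 82.8, 94.0, 97.9 and 102.5 TT per kb from the shortest to the longest of the 4 length classes, protein-coding genes 67.7, 79.5, 87.3 and 91.5, and other lncRNA genes 88.9, 94.3, 96.9 and 101.8. The GC content of the gene moved with it, with medians of 41.1% in members and 43.9% in protein-coding genes. The members among the 3000 had 93.2 TT per kb, those with a lower density above 0 had 89.4 and those listed at 0 had 96.6, with no order by density. No lesion was measured here.

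Of a list of 30 often studied LINC transcripts, 9 were in the list. All 9 had a density above 0, where 36.9% of members did, and 2 were among the 3000. LINC01638 had 303.7 and LINC00839 had 48.0. LINC00520 followed at 7.54, LINC00327 at 3.47 and LINC01088, whose locus spans 337335 bp, at 1.52. LINC01133 had 0.78 and LINC01234 had 0.693. LINC01503, known as a target of TP63 in squamous cancers, had 0.26, and LINC01554 had 0.173. None of the 9 was among the 63.1% of members listed at 0. The 30 transcripts were chosen with earlier results of these data known, so this describes the 9 alone.

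The coordinates behind these values were less certain for members than for protein-coding genes. Both ends in the list matched those of an annotated transcript in 604 members (54.9%), in 99.8% of protein-coding genes and in 65.7% of other lncRNA genes. The contrast was smaller at the start. The listed TSS lay over 1 kb from the annotated gene start in 267 of 1100 members and 1101 of 6036 protein-coding genes. Among all listed genes with an annotation this held for 1765 of 9538. Members with the coordinates of an annotated transcript were above 0 in 31.4% (189 of 601) and among the 3000 in 3.99% of cases, and the others in 43.4% (215 of 495) and 5.05%. Another annotated gene of any kind lay over the first 3 kb of 248 members (22.5%), near the 24.0% of all listed genes. The share was 16.0% in protein-coding genes and 44.6% in other lncRNA genes. The cell type was checked on the few markers listed. Of 11 pigment epithelium genes 5 were listed, and 4 were above 0: OTX2 at 217.1, MITF at 13.3, RLBP1 at 1.26 and RPE65, the visual cycle isomerase, at 0.26, with TTR at 0. None of 4 epithelial genes was listed. CDH5 of endothelium, SPI1 of blood and ALB of liver were listed at 0 and CD3E had 0.173, but COL1A1 had 25.8 and the neuronal gene SNAP25 had 18.4.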

How the data were processed

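H2BK120Ub ChIP-seq was made from RPE1 cells in 9 libraries, none of which has values in the table used here. The authors took gene coordinates from UCSC knownCanonical, kept genes at least 2 kb apart and 3 kb long, and gave TSS, strand and length in GRCh38.p14. The deposited BrU-seq score is a read density over the first 3 kb, measured in WT cells without UV. Its scale and depth are not given in the sources used here. Reads were aligned with STAR, allowing up to 20 multimaps with the primary kept, and counted with HOMER (4.8.2 per the labels) at default settings. It is named for a condition, so it is printed as the authors' value.

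From the list, 9538 of 9588 genes matched GENCODE v44 by identifier. Values within 1e-06 of 0 were set to 0. Plus-strand TSSs are the listed first position plus 1, and minus-strand TSSs the listed position. Sequence came from hg38, whose main chromosomes have GRCh38 coordinates: for the 129 members whose RefSeq promoter has the listed start, 129 sequences were identical. Shares have exact binomial and medians order-statistic intervals (95%), checked on simulated data. Some promoter sequences are not reported here. The members, lists and comparisons were chosen with earlier results of these data known. Named genes were the 20 members with the highest density, the 5 longest, the 30 often studied transcripts, the nearest protein-coding neighbours, and the most and least isolated of the 3000. Other genes, among them the members of runs, the transcribed members below the 20th, the neighbours of the single loci, and members named as exceptions, were chosen after their values were seen. Python 3.11.15, numpy 2.4.6, pandas 2.3.3, scipy 1.17.1 and matplotlib 3.10.9 were used.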

Additional observations from a re-analysis of the deposited data

How the results depend on the processing

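The 6 results on LINC genes were recomputed under 38 alternatives, 30 planned and 8 added after the data were seen. The value stayed within its 95% interval in 24, left it in 12, and the order against protein-coding genes turned in 2. Both turns were in length: the median of members was 20667 bp with only genes whose listed coordinates are those of an annotated transcript (an added alternative, protein-coding genes 23052 bp), and 20429.5 bp with the length of the annotated gene (28059.5 bp). With annotated coordinates only, 31.4% of members were above 0 and 6.29% of promoters were CpG-rich. Without genes close to an annotated protein-coding gene, also added, 33.5% were above 0 and 2.59% were among the 3000. The cause of these changes was not tested.

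The others follow from the setting itself. A density of at least 1 left 17.7% of members above it, with a median of 5.89. With 2500 or 3500 genes in the ranking, 2.55% or 8.67% of members were included. The median gap was 93407 bp for genes that keep the spacing and size rules, 116313 bp between start sites and 246372 bp to the nearest listed protein-coding gene. A CpG ratio of at least 0.75 with a GC content of at least 55% left 5.27% of promoters CpG-rich.

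No paired analysis was possible because the list holds no value of a single library, and for the same reason leaving out a replicate gave no value. The unknown depth of the BrU-seq libraries limits which members are listed at 0.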
